A study of Caenorhabditis elegans with 2 samples.

Results

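Aminoacyl-tRNA synthetase genes were taken as the protein-coding genes of the ce11 annotation whose name is a letter followed by ars- and the number 1 or 2, and 31 of 19985 protein-coding genes met this rule, 20 numbered 1 and 11 numbered 2. Sites occupied by the protein ZK546.5 had been mapped by chromatin immunoprecipitation with sequencing (ChIP-seq) in Caenorhabditis elegans at the third larval stage (L3). The animals were of strain OP231, which carries the mutation unc-119(ed3) on chromosome III and the integrated transgene wgIs231, from which ZK546.5 is made as a fusion whose C-terminal end carries GFP and FLAG. The chromatin came from this 1 line, from whole animals with the sexes not separated, so tissues cannot be told apart. The 2 biological replicates form 1 group and nothing else was compared, so each result is a rank or a count set beside the same value over all protein-coding genes, and no test was made.

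Aminoacyl-tRNA synthetases join each amino acid to its own transfer RNA, and the charged tRNA is then carried to the ribosome. Animals need a set for translation in the cytosol and a set for translation in mitochondria, and both are encoded in the nucleus. In most pairs of worm genes the number 1 marks the cytosolic and the number 2 the mitochondrial enzyme, but the numbers are not a strict code. RefSeq names the aars-1 product mitochondrial and the aars-2 product cytoplasmic. The set is also not every synthetase of the worm. By RefSeq product, fars-3 (a phenylalanine enzyme subunit), glp-4 (valine), Y105E8A.20 (methionine, named mars-2 in RefSeq), prx-10 (tryptophan, mitochondrial) and K03B4.1 (serine) are synthetase genes with other names, and these 5 were counted apart.

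A call is an interval in a deposited list with a summit, its highest point, and a signal value given by the authors' peak caller. Replicate 1, replicate 2 and the pooled data each had a list of exactly 30000 calls, cut by number, so binding was not separated from background in its weaker part, and the authors' thresholded set held 261 peaks. Calls were ranked within a list by signal, with rank 1 the strongest, since signal scales differ between lists. Signals ran from 13.0 to 1408 in the pooled list, from 8.46 to 660 in replicate 1 and from 5.98 to 774 in replicate 2. A gene was said to have a call where a summit lay within 500 bp of its annotated 5′ end. The files gave no read counts, so the depth of the libraries is unknown.

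The sequence under the summits was read from the ce11 genome to show what the members with a pooled call have there. The lines below give up to 50 bases on each side of the pooled summit, on the strand of the gene, for 6 members with a pooled call. Capitals mark the summit and 5 bases on each side, and windows were shortened where they would enter an annotated untranslated region.
ears-2, chrIV:390333-390414, minus strand: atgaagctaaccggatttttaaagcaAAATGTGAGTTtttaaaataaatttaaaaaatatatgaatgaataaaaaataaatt
yars-2, chrIV:4712625-4712694, minus strand: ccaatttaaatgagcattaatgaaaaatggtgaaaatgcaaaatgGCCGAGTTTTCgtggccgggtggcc
mars-1, chrIV:11635815-11635915, minus strand: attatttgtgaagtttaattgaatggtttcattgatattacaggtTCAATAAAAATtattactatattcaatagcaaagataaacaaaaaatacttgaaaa
iars-1, chrIV:10368163-10368263, plus strand: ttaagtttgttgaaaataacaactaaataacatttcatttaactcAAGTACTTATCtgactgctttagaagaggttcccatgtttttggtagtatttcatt
qars-1, chrIV:15013481-15013581, minus strand: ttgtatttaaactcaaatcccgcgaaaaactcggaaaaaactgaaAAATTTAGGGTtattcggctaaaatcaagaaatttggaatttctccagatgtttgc
nars-2, chrIII:11500748-11500829, minus strand: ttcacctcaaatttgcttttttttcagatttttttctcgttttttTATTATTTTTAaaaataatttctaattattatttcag
Of these stretches, 5 had a GC content below that of the genome, with 17.1% at ears-2 and nars-2, 19.8% at mars-1, 27.7% at iars-1 and 32.7% at qars-1. The yars-2 stretch had 42.9%, beside 35.4% of the whole genome. The value can depend on the window, since 200 bp around the ears-2 summit had 37.5%.

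No synthetase gene had a thresholded peak. The count was 0 of 31 members (two-sided exact 95% interval 0 to 11.2%; the simpler limit of 3 counts in 31 is 9.68%), beside 1.22% of all protein-coding genes. With a background share this low, a set of 31 genes would hold few peaks or none in any case, so the count of 0 does not set the members apart. The highest pooled signal at a member was 31.4, below the 51.5 of the weakest thresholded peak. The thresholded summit nearest to any member lay 10447 bp from nars-1, which encodes the asparagine enzyme, and the median distance over the members was 145296 bp. The gene yars-1, of the tyrosine enzyme, was 17414 bp from the strongest thresholded summit of the whole set.

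Weaker calls were found at a share of members close to the background. A pooled call was present at 12 of 31 members (38.7%, exact 95% interval 21.8 to 57.8), beside 31.2% of all protein-coding genes. Among the strongest 3000 pooled calls, the count was 2 of 31 (6.45%, interval 0.791 to 21.4), beside 5.61% of all protein-coding genes. Replicate 1 had a call at 12 members, beside 31.3% of all protein-coding genes, and replicate 2 at 15, beside 31.2%. In replicate 1, 3 members reached rank 3000 or better, beside 4.95% of all protein-coding genes. In replicate 2 none did, beside 5.7%, and the best member was nars-2 at rank 3206. Calls of both replicates with summits within 200 bp of each other were present at 5 members (16.1%, interval 5.45 to 33.7), beside 8.95% of all protein-coding genes. These intervals contain the background shares in each case.

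**Figure D1:**
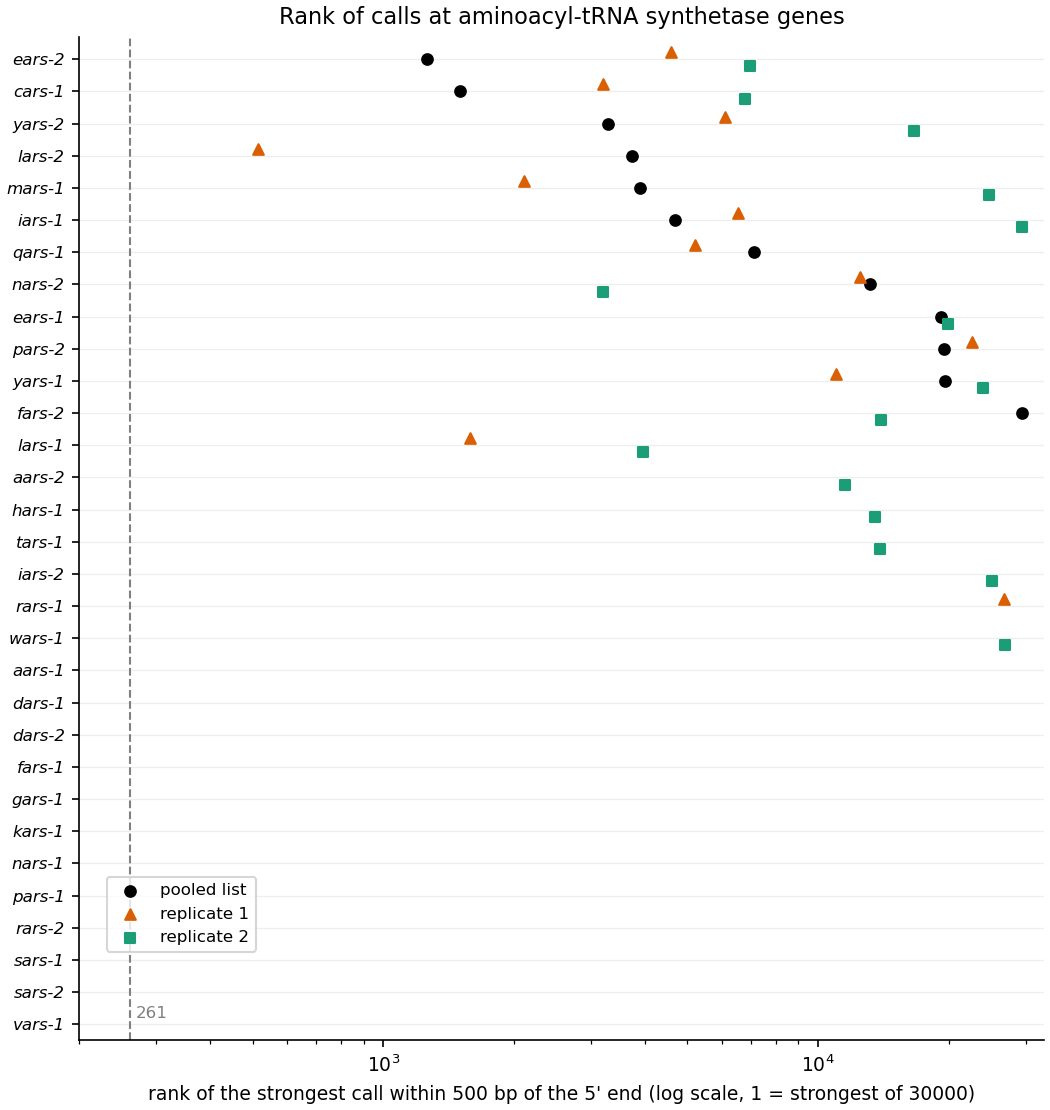
Each row is 1 of the 31 synthetase genes and each point the rank of the strongest call within 500 bp of its 5′ end in the pooled list (circles), replicate 1 (triangles) or replicate 2 (squares), on a log axis; a missing point means that the list had no call there. The dashed line is at rank 261, the number of thresholded peaks, and every point lies to its right, the best being lars-2 at rank 516 in replicate 1.

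The strongest pooled call at a member was at ears-2, whose product charges mitochondrial tRNA with glutamate. Its pooled rank was 1260 (signal 31.4), with rank 4586 in replicate 1 (signal 16.2) and rank 6960 in replicate 2 (signal 11.5). The 3 summits lay 85 bp downstream, 27 bp downstream and 18 bp upstream of the annotated 5′ end, so both replicates placed a call at the start of the gene. The gene lies at chrIV:388686-390468 on the minus strand, and the pooled summit at position 390383 was in an intron. The gene uncp-18 is transcribed away from it with 91 bp between them, and the same call lay within 500 bp of both 5′ ends.

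The second was at cars-1, which encodes the cytoplasmic cysteine enzyme, at chrI:2623099-2628577 on the minus strand. Its ranks were 1503 in the pooled list (signal 30.4), 3205 in replicate 1 (signal 17.6) and 6784 in replicate 2 (signal 11.6). All 3 summits lay inside the gene, 449 to 458 bp downstream of the 5′ end and within 9 bp of each other, and the pooled summit was in a coding exon. No other member with a call in each list had its summits as close together. The call was also near the edge of the window, and with a limit of 250 bp cars-1 had no call. These members, ears-2 and cars-1, were the only ones with a pooled rank of 3000 or better, and in neither replicate alone did either reach that rank.

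At yars-2, a tyrosine enzyme gene on chromosome IV, the pooled summit was 20 bp upstream of the 5′ end at rank 3277 (signal 25.8). The replicates placed their summits 18 bp upstream (rank 6096, signal 15.2) and 11 bp downstream (rank 16623, signal 8.32), so the 3 positions lay within 31 bp of each other although the ranks differed. At mars-1, the gene of the cytoplasmic methionine enzyme, the pooled summit was 378 bp upstream at rank 3901 (signal 24.9). Replicate 1 had rank 2104 there (signal 19.1, 420 bp upstream) and replicate 2 rank 24751 (signal 6.79, 298 bp upstream), so the call was strong in replicate 1 and among the weakest of its list in replicate 2. The asparagine enzyme gene nars-2 was the reverse case. It had rank 13126 in the pooled list (signal 18.3, 32 bp upstream), rank 12458 in replicate 1 (signal 12.4, 29 bp upstream) and rank 3206 in replicate 2 (signal 14.2, 145 bp downstream). With ears-2 and cars-1, these 3 genes made up the 5 members with calls of both replicates within 200 bp of each other.

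The leucine enzyme genes showed how far the replicates could differ. At lars-2, on chromosome I, replicate 1 had rank 516 (signal 24.9), the best rank of any member in any list, at 203 bp downstream of the 5′ end in an intron. The pooled summit was at the same base with rank 3738 (signal 25.1), and replicate 2 had no call within 500 bp. At lars-1, on chromosome III, replicate 1 had rank 1584 (signal 20.2) and replicate 2 rank 3950 (signal 13.5), but the summits were 426 bp upstream and 384 bp downstream of the 5′ end. The pooled list had no call within 500 bp of lars-1, and its nearest summit was 519 bp away with rank 6437.

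At iars-1 and qars-1, of the isoleucine and glutamine enzymes, the call was upstream and rested on replicate 1. The pooled summit of iars-1 lay 388 bp upstream at rank 4690 (signal 23.9), within 500 bp also of the divergent gene pges-2. Replicate 1 had rank 6544 (signal 14.95, 348 bp upstream), and replicate 2 had its call on the other side, 300 bp downstream, at rank 29436 (signal 6.06). The qars-1 summit lay 348 bp upstream at rank 7124 in the pooled list (signal 21.6) and 384 bp upstream at rank 5208 in replicate 1 (signal 15.8). Replicate 2 had none at qars-1.

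The other 4 members with a pooled call were in the weak part of the list. At ears-1, of the glutamate enzyme, the pooled rank was 19171 (signal 16.0, 25 bp upstream) and that in replicate 2 was 19912 (signal 7.64, 57 bp upstream), with no call in replicate 1. The proline enzyme gene pars-2 had pooled rank 19508 (signal 15.9, 447 bp downstream) and rank 22595 in replicate 1 (signal 9.81, 171 bp downstream), with none in replicate 2. At yars-1 the ranks were 19568 in the pooled list (signal 15.8, 349 bp upstream), 10960 in replicate 1 (signal 13.0, 340 bp upstream) and 23942 in replicate 2 (signal 6.93, 60 bp downstream). At fars-2, of a phenylalanine enzyme, they were 29343 in the pooled list (signal 13.1, 383 bp downstream) and 13955 in replicate 2 (signal 8.97, 376 bp downstream), with no call in replicate 1. These 4 had the weakest pooled ranks among the called members. As at every other member, their calls were outside the thresholded set and so were not separated from background.

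A call in a replicate but not in the pooled list was present at 7 members. Beside lars-1 these were aars-2 (rank 11537 in replicate 2), hars-1 (13531), tars-1 (13883), iars-2 (25111) and wars-1 (26812), all in replicate 2, and rars-1 (26704) in replicate 1. The other 12 members had no call within 500 bp in any list. They were aars-1, dars-1, dars-2, fars-1, gars-1, kars-1, nars-1, pars-1, rars-2, sars-1, sars-2 and vars-1, the genes for alanine, aspartate, phenylalanine, glycine, lysine, asparagine, proline, arginine, serine and valine enzymes. The 500 bp limit fell between cars-1 and pars-2, whose pooled summits were 449 and 447 bp away, and lars-1 (519 bp), tars-1 (608 bp), iars-2 (633 bp) and wars-1 (650 bp, rank 3061). From 500 bp upstream through the whole gene, 20 of 31 members held a pooled call, beside 53.9% of all protein-coding genes. The best of these was at fars-1, with rank 801, outside the window at the 5′ end.

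Summits were not placed on one side of the 5′ ends. Of the 12 pooled summits, 7 were upstream and 5 downstream, and the share upstream was 58.3%, beside 61.7% of all protein-coding genes with a call. The median distance was 348.5 bp, and 7 of 12 summits were more than 300 bp away. Over all protein-coding genes with a call the median was 244 bp, and 37.7% were more than 300 bp away. Each of the 12 summits was nearer to the member's own 5′ end than to that of any other annotated gene. By annotation 6 summits were intergenic, 5 in introns and 1 in a coding exon, and the intron at yars-1 belongs to the neighbouring gene Y105E8A.20. Median GC content in 200 bp around the summits was 29.5%, with a range from 17% at fars-2 to 43% at cars-1. It was 32.5% over all protein-coding genes with a call and 42% at the 235 nuclear thresholded peaks.

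**Figure D2:**
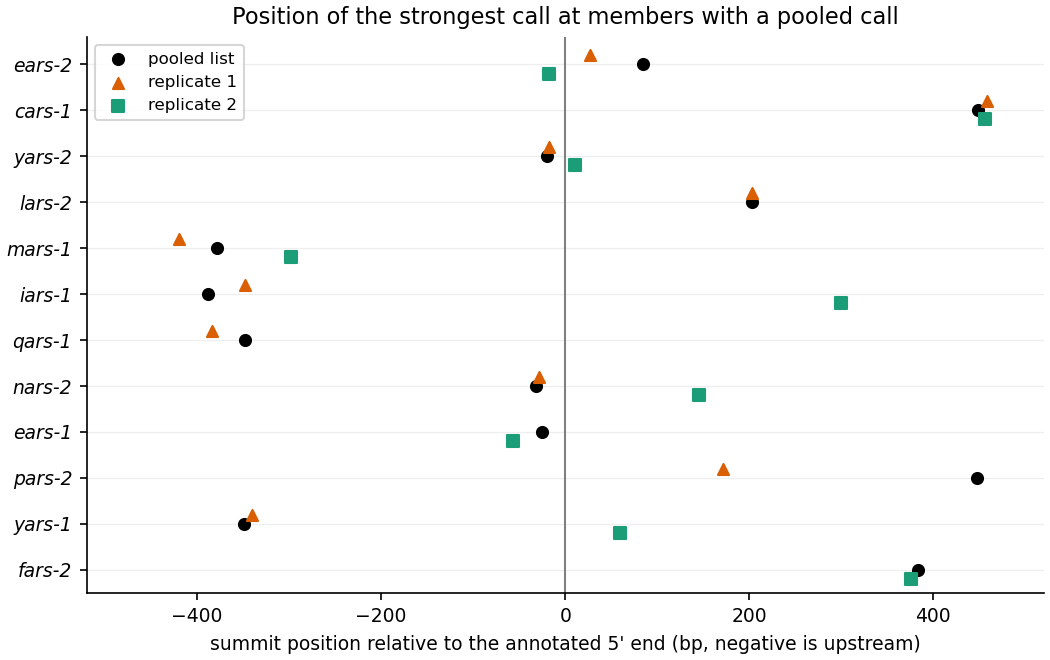
Position of the strongest summit relative to the annotated 5′ end, in bp with upstream negative, for the 12 members with a pooled call, ordered by pooled rank from the top; circles are the pooled list, triangles replicate 1 and squares replicate 2. Summits of all 3 lists lie within 9 bp of each other at cars-1, while at iars-1 those of the replicates lie 348 bp upstream and 300 bp downstream.

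The letters in front of the annotated 5′ ends were of one kind in most members. In C. elegans a short spliced leader RNA is joined to the 5′ end of many messages at an acceptor site that ends in AG, and the annotated start of such a gene can be that site and lie downstream of its promoter. The last 3 bases before the 5′ end were CAG on the gene's strand at 19 of 31 members (61.3%), beside 22.1% of all protein-coding genes. TTTCAG, which contains it, stood there at 8 members (25.8%), beside 12.2%. The lines below show the last 30 bases before the 5′ end of 3 members with CAG, in capitals, and of iars-1, which lacks it.
mars-1, chrIV:11635488-11635517, minus strand: ccaaatgcttcttaattttaatatattCAG
qars-1, chrIV:15013184-15013213, minus strand: attattcaaaaaaattcacaaattttcCAG
dars-1, chrIII:9491216-9491245, minus strand: attggttttatagatgctaatttgtttCAG
iars-1, chrIV:10368571-10368600, plus strand: cctagtgtctaactttcgcatatttaaaat
This property was noticed after the sequences had been read. CAG stood before 14 of the 20 genes numbered 1 and 5 of the 11 numbered 2. A pooled call was present at 7 of the 19 members with CAG and at 5 of the 12 without it. Over all protein-coding genes, 38.3% of those with CAG and 29.2% of those without it had a pooled call.

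Of words of 6 bases, 4 were taken from earlier results on the same data and looked for on both strands. The first was ACGCAG, and the next was GACGCA, which can overlap it by 5 letters. The others were CGAGAC, found in 1 member promoter, and the word ACCGTA. In promoters from 250 bases before to 50 after the 5′ end, at least 1 of the 4 was present at 5 of 31 members (16.1%), beside 25.2% of all protein-coding genes. The 5 were aars-1, dars-1, hars-1, kars-1 and sars-1, and none of them had a pooled call. Of all 31 members 19 had none, and the share with a call among all protein-coding genes with a word was not computed. In 101 bases around the pooled summit, cars-1 held ACGCAG with its overlapping word GACGCA and the other 11 members held none, beside 11.3% of all protein-coding genes with a call that held at least 1. The lines below give the 150 bases before the 5′ end of 2 members with a word and no call in any list, with the word in capitals as it reads on that strand.
dars-1, chrIII:9491216-9491365, minus strand: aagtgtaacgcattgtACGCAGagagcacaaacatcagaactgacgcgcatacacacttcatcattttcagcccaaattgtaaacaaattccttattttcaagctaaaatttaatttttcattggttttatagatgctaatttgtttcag
aars-1, chrII:11464498-11464647, minus strand: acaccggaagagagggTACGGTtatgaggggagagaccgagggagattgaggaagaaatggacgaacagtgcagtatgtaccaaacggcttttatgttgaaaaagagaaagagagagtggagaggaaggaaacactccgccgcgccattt
A match is a description of these letters and says nothing of what binds there.

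Genes numbered 2 had a pooled call more often than genes numbered 1, by less than the counting error. The counts were 6 of 20 genes numbered 1 (30%, exact 95% interval 11.9 to 54.3) and 6 of 11 numbered 2 (54.5%, interval 23.4 to 83.3), and both intervals contain the 31.2% of all protein-coding genes. The difference, numbered 1 minus numbered 2, was -24.5 percentage points, with an interval from -58.5 to 15. With rank 3000 or better there was 1 gene in each group. In replicate 1 the counts were 7 of 20 and 5 of 11, and in replicate 2 they were 9 of 20 and 6 of 11, with differences of -10.5 and -9.5 points. The median pooled rank of those with a call was 5907 for genes numbered 1 and 8432 for genes numbered 2. Over all protein-coding genes with a call the median was 12435.5, and no interval was computed for these medians. Among the 11 amino acids with both genes, ears and yars had a pooled call at both, with the better rank at the gene numbered 2 in each. The gene numbered 2 alone had one for fars, lars, nars and pars, the gene numbered 1 alone for iars, and neither for aars, dars, rars and sars. Grouped by the compartment in the RefSeq product name, 3 of 10 cytoplasmic and 2 of 4 mitochondrial members had a pooled call, and 7 of the 17 whose product name gives no compartment, again beside 31.2% of all protein-coding genes.

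Members often had a close neighbour upstream, as genes in compact parts of the worm genome do. A protein-coding gene on the opposite strand lay within 500 bp upstream at 7 of 31 members (22.6%), beside 9.33% of all protein-coding genes. One on the same strand lay there at 10 members (32.3%), beside 18.7%. The share with a pooled call was 2 of 7 in the first group, 4 of 10 in the second and 6 of the 14 with neither. The same shares over all protein-coding genes were 39.4%, 36.2% and 28.9%. In worms a row of close genes on 1 strand can be transcribed together from the start of the first gene, so the first gene of each row was also looked up. A pooled call lay at that start for 3 of the 10 members in such rows (30%), beside 36% of all protein-coding genes in such rows. These were vars-1 (oma-2, rank 10090), rars-1 (C26E6.12, rank 13254) and dars-2 (F10C2.4, rank 21150), and none of the 3 members had a pooled call at its own start. Of the 10 members in rows 6 had none, and the same overlap over all protein-coding genes was not computed. Called members were on chromosomes I (5 of 9 members), IV (5 of 8), III (1 of 6) and V (1 of 4), with 0 of 4 on II. Over all protein-coding genes the shares were 36.2%, 32.9%, 36.5%, 28.9% and 28.3% in that order.

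Other genes of tRNA charging and use were taken from a list, of which 29 of 32 names were in the annotation. A pooled call was present at 12 of 29 (41.4%, beside 31.2% of all protein-coding genes). A thresholded peak was present at 2 of 29, beside 1.22% of all protein-coding genes. Both peaks were at genes for elongation factor 1A, which takes the charged tRNA made by the synthetases to the ribosome. At eef-1A.1 the rank was 16 in the pooled list (signal 824), 22 in replicate 1 and 14 in replicate 2, with the summit 390 bp upstream and nearer, at 151 bp, to the 5′ end of rfc-4. At eef-1A.2, on X, the ranks were 227 (signal 58.1), 1229 and 274, with the summit 348 bp upstream. The exchange factor gene eef-1B.1 had rank 306 (signal 47.7) and the mitochondrial elongation factor gene tufm-2 rank 2444 (signal 27.4), the latter nearer to the 5′ end of exoc-7 (103 bp). No other gene of the list reached pooled rank 3000. The gene eef-1G, of another subunit of the exchange factor, had rank 471 in replicate 1 and 386 in replicate 2 but no pooled call. Such cases were few, since 111 of the 1789 protein-coding genes with calls of both replicates, and none of the 5 such members, lacked a pooled call. Counted by call instead of by gene, they were rarer among strong calls. Over the whole lists, 382 of 6604 replicate 1 calls with a replicate 2 call had no pooled summit within 500 bp (5.78%). With a replicate rank limit of 1000 the count was 3 of 253 (1.19%). Of 17 genes of tRNA maturation and modification, 5 had a pooled call (29.4%, beside 31.2% of all protein-coding genes). The best rank among them was 3380, at hoe-1, of the enzyme that trims the 3′ end of tRNA precursors. Of the 3 genes of the response to uncharged tRNA, gcn-1 alone had one (33.3%), at rank 12899. The synthetase genes with other names had a pooled call at fars-3 (rank 3117, signal 26.1, 395 bp upstream) and prx-10 (rank 16232), 2 of 5 (40%). Of these, fars-3 was also in the list above and is counted in its 12 of 29.

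The members stood lower in the ranking than the cytosolic ribosomal protein genes at every rank limit. A thresholded peak was present at 30 of 80 cytosolic ribosomal protein genes, 2 of 70 mitochondrial ribosomal protein genes and 0 of 31 synthetase genes. With rank 3000 or better the counts were 48 of 80, 10 of 70 and 2 of 31, and over the whole pooled list they were 60 of 80, 29 of 70 and 12 of 31. The exact 95% intervals of the shares at rank 3000 were 48.4 to 70.8% for the cytosolic ribosomal protein genes, 7.07 to 24.7% for the mitochondrial ones and 0.791 to 21.4% for the synthetases. The first interval does not overlap the others, which overlap each other. At rank 3000 the members' share was 6.45% and that of all protein-coding genes 5.61%. At rank 4000 they were 16.1% and 6.89%, at rank 10000 they were 22.6% and 13.2%, and over the whole list they were 38.7% and 31.2%. No interval was computed at ranks 4000 and 10000.

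**Figure D3:**
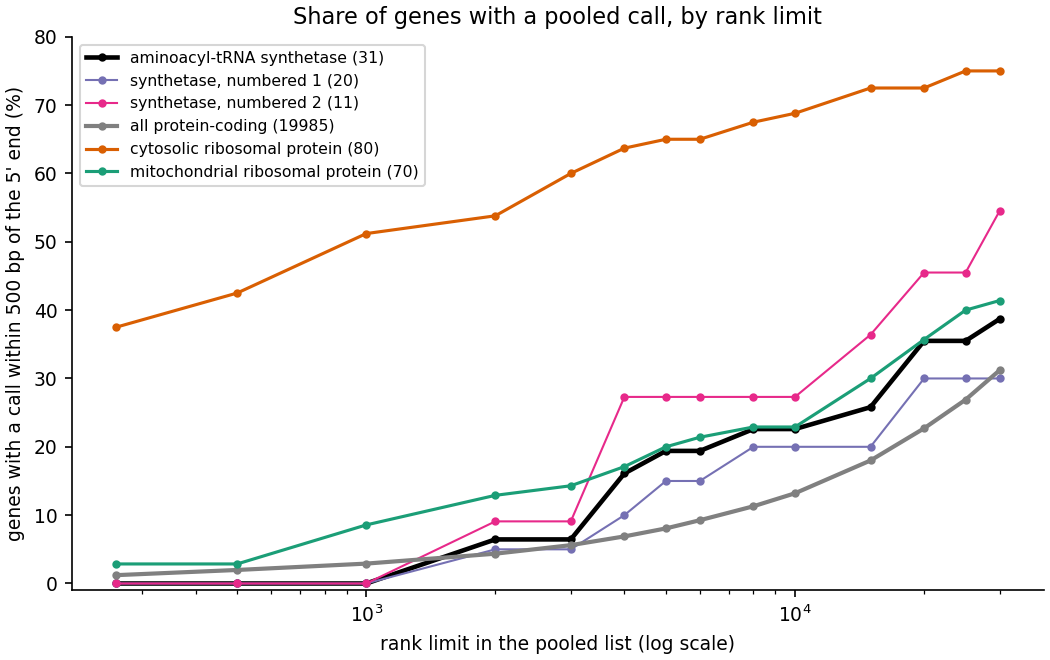
Share of genes in percent with a pooled call within 500 bp of the 5′ end among the calls up to each rank (log axis), for synthetase genes (black, and thin lines for those numbered 1 and 2), all protein-coding genes (grey), cytosolic ribosomal protein genes (orange) and mitochondrial ribosomal protein genes (green). The synthetase line is at 0 up to rank 1000 and ends at 38.7%, while the cytosolic ribosomal protein line starts at 37.5% and ends at 75%.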

How the data were processed

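Per the deposited file notes, each replicate list was made from that replicate's alignments on ce11 and a control file that both share, the pooled list from both replicates together, and the thresholded set from all 3 by the irreproducible discovery rate procedure. Which aligner, caller and thresholds were used is not given in the sources used here, and labels name the antibody as ZK546.5 and nothing more. Signal values in the deposited lists come from the caller and served for ranking within a list. The deposited q-value field was taken as a score, since its scale is not stated, and used only as another ranking. ce10 lists were not used here.

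Summits are the interval start plus the summit offset, given 1-based. Gene 5′ ends came from Ensembl release 115, and sequences and product names from RefSeq, both on WBcel235 (ce11). Each gene received its strongest call within 500 bp. The background is the same count over all 19985 protein-coding genes. Binomial intervals are exact (Clopper-Pearson, 95%) and cover counting error over genes only, and the interval of a difference combines both. Genes are not replicates, and with depth unknown a missing call does not show that a site is unbound. The assignment of calls was tested on simulated calls at known positions. Members, lists and words were chosen with earlier results of these data known. All members are named, with rank, signal and summit position in each list for the 12 with a pooled call. The enzyme class and the letters at 5′ ends were chosen after values or sequences were seen. Tables were made in Python 3.11.15 (numpy 2.4.6, pandas 2.3.3), intervals with scipy 1.17.1, and figures in matplotlib 3.10.9.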

Additional observations from a re-analysis of the deposited data

How the results depend on the processing

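No alternative gave a thresholded peak at a member. Since the nearest such summit was 10447 bp away, windows up to 1000 bp and stricter settings could give nothing else. The strongest 261 calls of each replicate alone, which could have differed, also gave 0. The order of the shares of genes numbered 1 and 2 held in all 7 settings, with differences from -31.4 to -7.3 points. The other counts moved with the window and with how much of a list was used. With 250 bp, 5 members had a pooled call (17% of all protein-coding genes), 1 had rank 3000 or better (3.12%), 3 had calls of both replicates (4.46%), 3 had their summit upstream, and 4 other tRNA pathway genes had a pooled call. With the strongest 10000 calls, 7 members had a pooled call (13.2%), 2 had calls of both replicates (3.21%) and 4 of the 7 had their summit upstream (68.9% of all protein-coding genes with a call). An interval that covers the 5′ end was found at 4 members (11.7% of all protein-coding genes). At rank 1000 the count was 0 (2.91%) and at rank 6000 it was 6 (9.26%), and with 1 replicate left out the count at rank 3000 ranged from 0 (without replicate 1) to 3 (without replicate 2). Calls of both replicates were found at 8 members with 1000 bp (14.5%) and at 3 with summits within 100 bp of each other (6.35%). Ranking by the q-value field kept all 12 member ranks within 1.5 times. The field orders these calls almost as the signal does (cars-1 1503 in both, nars-2 13126 and 13388), so this setting could change little. Adding the 5 synthetase genes with other names, chosen after the annotation was seen, gave 14 of 36 with a pooled call. Leaving out a replicate could not be applied to the calls of both replicates. No paired analysis was possible because there is 1 group. Unknown depth limits every count of missing calls.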

Other observations

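Aminoacyl-tRNA synthetases fall into 2 structural classes with unrelated catalytic domains. Class I holds the enzymes for cysteine, glutamate, glutamine, isoleucine, leucine, methionine, arginine, valine, tryptophan and tyrosine, and class II the others here, among them the lysine enzyme as in most eukaryotes. Grouped in this way, after the values had been seen and with no test, 9 of 15 class I genes and 3 of 16 class II genes had a pooled call, beside 31.2% of all protein-coding genes. Among the strongest 10000 pooled calls the counts were 7 of 15 and 0 of 16, beside 13.2% of all protein-coding genes. In replicate 1 they were 10 of 15 and 2 of 16 over the whole list, beside 31.3%, with 8 and 0 among the strongest 10000. In replicate 2 they were 10 of 15 and 5 of 16, beside 31.2%, with 3 and 1 among the strongest 10000. The background share among the strongest 10000 calls of each replicate was not computed. The lists are not independent, since the pooled one is made from both replicates, and the grouping was chosen on these values. The class I members with a pooled call were cars-1, ears-1, ears-2, iars-1, lars-2, mars-1, qars-1, yars-1 and yars-2, and those of class II were fars-2, nars-2 and pars-2.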
